A study of Mus musculus with 8 samples.

Results

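The genes described here are B4galnt2, Car6, Cyb5r2, Avil, Ccl21a, Elovl7, Homer2 and Atp6v0e2, all brighter in CreTW than in Cre growth plate cartilage. In Cre cartilage 7 of the 8 were dim or below background, while Avil was well above background on all 4 Cre arrays. They are 8 of 22907 genes with a symbol on the array and are read by 11 of its 56605 probes, taken as every non-control probe that names a RefSeq transcript of 1 of them. They were selected on their measured signals on these arrays, for a low or absent signal in Cre and a higher one in CreTW, so their values in this comparison are given as a description, with no test.

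RNA came from femoral growth plate cartilage of 12-day-old littermates, 4 CreTW and 4 Cre mice, and 100 ng of each was hybridised to a 1-colour Agilent array. As background on the study, both genotypes carry a Cre recombinase driven in chondrocytes by the type II collagen promoter, and CreTW mice in addition express a dominant-negative form of Twinkle, the helicase of mitochondrial DNA. The labels name the genotypes without spelling them out, so promoter and allele are not taken from the files. Values are log2 of the processed signal minus the array's 75th percentile, so that 0 is the brightness of a probe at that percentile, and "well above background" is the scanner software's call for a spot on an array. The 8 arrays lay on 1 slide in 2 rows, each row holding 2 arrays of either genotype, and 45.4 to 57.9% of probes were well above background with none saturated. All 14 chondrocyte markers examined were well above background on all arrays of both genotypes, and Col2a1, the type II collagen gene of cartilage, differed by -0.05 ± 0.13 (SE). Twnk, the gene of Twinkle, differed by -0.10 ± 0.21 (limma adjusted p = 0.89). Whether its probe reads the transgene is not known.

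The 8 genes do different kinds of work. Ccl21a encodes a chemokine that guides cells carrying the receptor CCR7 towards lymphatic vessels and lymph nodes, and Car6 encodes the secreted carbonic anhydrase known from saliva. B4galnt2 encodes the Golgi enzyme that adds the last sugar of the Sda blood group glycan, Cyb5r2 a cytochrome b5 reductase, and Elovl7 an enzyme of the endoplasmic reticulum that lengthens fatty acids. Avil encodes advillin, an actin-binding protein of the villin family known from sensory neurons. Homer2 encodes a scaffold that ties glutamate and calcium-release receptors together, and Atp6v0e2 a small subunit of the proton pump V-ATPase. RefSeq lists the older names DOC1 for Car6 and DOC6 for Avil. As background, DOC stands for "downstream of CHOP", and CHOP, encoded by Ddit3, is a transcription factor of the integrated stress response, the programme in which ATF4 and related factors raise amino acid and chaperone genes.

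The stretches before an annotated transcription start are shown for Avil and Car6, which carry those older names, and for B4galnt2, the gene with the largest bound on its fold. Each is 250 bases long and ends at the base before that start, from RefSeq on GRCm38.p6, written on the gene's strand. The RefSeq record of Avil begins at 127000065, so its whole stretch lies inside the record. The record of B4galnt2 ends at 95914960, so its stretch lies partly inside the record. Avil lies at chr10:127000459-127000708 on the plus strand, Car6 at chr4:150201136-150201385 on the minus strand and B4galnt2 at chr11:95914872-95915121 on the minus strand. Capitals mark the C/EBP-ATF response element, TGATGNAA, which ATF4 and C/EBP proteins are known to bind.
Avil: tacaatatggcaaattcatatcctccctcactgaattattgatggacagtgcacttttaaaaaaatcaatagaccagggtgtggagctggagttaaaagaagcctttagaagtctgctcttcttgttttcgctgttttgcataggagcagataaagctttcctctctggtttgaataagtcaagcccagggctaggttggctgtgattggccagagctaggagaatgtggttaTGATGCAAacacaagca
Car6: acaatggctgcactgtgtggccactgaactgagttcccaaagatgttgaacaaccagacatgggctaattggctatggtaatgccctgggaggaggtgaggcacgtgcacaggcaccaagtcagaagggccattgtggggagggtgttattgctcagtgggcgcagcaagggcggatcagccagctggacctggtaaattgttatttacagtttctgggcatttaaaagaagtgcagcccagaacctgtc
B4galnt2: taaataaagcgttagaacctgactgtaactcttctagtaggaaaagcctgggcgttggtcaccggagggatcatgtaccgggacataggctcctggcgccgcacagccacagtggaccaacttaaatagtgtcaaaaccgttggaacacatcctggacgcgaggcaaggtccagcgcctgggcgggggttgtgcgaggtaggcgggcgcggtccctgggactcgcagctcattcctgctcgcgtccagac

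The element was searched on both strands, as TGATGNAA or TTNCATCA, from 250 bases before to 50 bases after the start. It occurred in 3.97% of 32851 such windows, and in those of 2 of the 8 genes, Avil and Cyb5r2. In Avil the letters TGATGCAA began 17 bases before the start used, and in Cyb5r2 the letters TTTCATCA began 11 bases after it. The RefSeq records of both genes reach further upstream than these starts. Among 34 genes of an integrated stress response list with a window, 12 held the element (35.3%), against 4.51% of all genes. A cyclic AMP response element, TGACGTCA, was in no window of the 8 genes and in 1.79% of all windows, and the endoplasmic reticulum stress element was in none of the 8 and in 0.119% of all. The letters CCAAT, with which the stress element begins, was found for 3 of the 8 genes, Atp6v0e2, Avil and Car6, and in 37.4% of windows. ACGTG, the hypoxia response core, was found for Car6 alone among the 8 and in 19.6% of windows. A match is a run of letters and not a measured site. Only windows at annotated starts were searched. Any other start of Car6 or of the rest of the 8 genes was not examined, so a missing element says nothing about it.

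Ccl21a, the chemokine, had log2 signals of -0.20, 0.08, -0.22 and -0.15 on the CreTW arrays, against -4.27, -5.44, -2.52 and -3.35 on the Cre arrays. It was well above background on all 4 CreTW arrays but on 1 Cre array, replicate 3, and the genotypes did not overlap. As measured, the difference was 3.77 ± 0.63 (SE of the difference of means, n = 4 each). With the Cre signals below background raised to each array's lowest signal that was well above background, it was 2.87, or 7.33-fold. In bulk tissue, more cells that express a gene and more RNA per cell cannot be told apart, and this holds for each gene described here.

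RefSeq lists 6 mouse genes under the chemokine's older name 6Ckine, of which 2 have a probe. As no probe sequences were available, which of the copies the Ccl21a probe reads is not known. The other copy with a probe, Gm13304, had signals of 3.25, 3.33, 3.32 and 3.15 in CreTW and of 3.13, 3.0, 2.90 and 2.65 in Cre. Its difference of 0.34 ± 0.11 did not pass the test (limma adjusted p = 0.338), although the 4 CreTW values lay above the 4 Cre values. Gm1987 is a predicted gene of chromosome 4, the chromosome of Ccl21a, and spans 1134 bases, against 1132 for Ccl21a. It is not listed under the name 6Ckine. Whether its probe and the Ccl21a probe read the same transcripts is not known, so the 2 are not taken as independent. Its pattern over the arrays was the most like that of Ccl21a, with 1.21, 1.65, 1.5 and 1.37 in CreTW and -0.94, -0.93, -0.08 and -0.58 in Cre. Gm1987 was well above background on all 4 Cre arrays. It rose 4.19-fold (log2 difference 2.07 ± 0.20, limma adjusted p = 0.00459). Gm1987 kept that call without each single array, the highest adjusted p being 0.0289, but lost it with a replicate block, in either slide row alone and with CreTW replicate 1 alone, 4 of 13 other settings (highest adjusted p 0.552).

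Ccl21a is best known from lymphatic vessels and lymph node stroma. Of 10 markers of these cells, 1 was well above background on all CreTW arrays and 2 on all Cre arrays, and Prox1, Mmrn1, Cxcl13 and Madcam1 were not so on any array. The summed signal of the list, in units of the array's 75th percentile, was 8.74 to 9.96 in CreTW and 5.73 to 7.40 in Cre, and the genotypes did not overlap. Pdpn, which chondrocytes and bone cells express too, made up most of that sum and differed by 0.54 ± 0.10 (limma adjusted p = 0.118). The part of these cells in the Ccl21a signal was not tested. Ccr7, the receptor, was well above background on 0 CreTW and 2 Cre arrays, and Ccl19, its other ligand, on 1 CreTW and 0 Cre arrays.

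Car6, the carbonic anhydrase gene, had -0.99, -1.43, -1.19 and -1.21 in CreTW, against -3.57, -4.88, -5.62 and -3.84 in Cre. Forms of its transcript or protein, secreted or not, were not told apart. No Cre array was well above background and all 4 CreTW arrays were, so the fold is a bound. Measured against the higher of the probe's own signal and each Cre array's lowest signal well above background, Car6 was at least 4.42-fold higher in CreTW. That lowest signal, called the detection limit below, is taken over all probes of an array. Some signals not called well above background lay above it, so it is an approximate limit and "at least" holds for this bound only. Markers of salivary and lacrimal glands, tissues known for Car6, summed to 0.636 to 1.07 in CreTW and 0.376 to 0.547 in Cre, without overlap. Of the 9, 0 were well above background on all arrays of either genotype, and only Krt8 and Krt18 on 4 or more arrays in all. The sums thus hold many signals below background, and nothing is read from their lack of overlap. Krt18, a keratin of simple epithelia on that list, was well above background on 3 CreTW and 2 Cre arrays and rose by 1.19 ± 0.18 (limma adjusted p = 0.0353). That call was lost without any 1 array other than CreTW replicate 2 (highest adjusted p 0.126) and in 8 of 12 other settings, with a difference of 0.38 after normexp correction. Smr3a, Pip and Epcam of the list were not well above background on any array, and the part of such cells in the Car6 signal was not tested.

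B4galnt2, the Sda enzyme, had -0.03, -0.47, -0.24 and -0.32 in CreTW, against -3.52, -3.43, -4.84 and -4.17 in Cre. The lowest CreTW array lay 2.96 above the highest Cre array, and no Cre array was well above background. B4galnt2 was at least 8.49-fold higher in CreTW by the bound. A second B4galnt2 probe for the same transcript was below background on all 8 arrays, so the gene rests on 1 probe and the second gives no fold.

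Cyb5r2, the cytochrome b5 reductase, had -0.70, -0.80, -0.80 and -0.89 in CreTW, against -3.68, -3.54, -4.58 and -3.42 in Cre. The 4 CreTW arrays lay within 0.19 of each other and far above the Cre arrays, none of which was well above background. Cyb5r2 was at least 5.88-fold higher in CreTW by the same bound. That probe names transcript NM_001205227, while a probe for transcript NM_177216 was below background on all 8 arrays in both genotypes.

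The pattern of Car6, B4galnt2 and Cyb5r2, well above background on 4 of 4 CreTW and 0 of 4 Cre arrays, was shown by 6 genes in all, 0.0262% of the 22907 with a symbol. The others were Lmx1a, C1ql3 and 1700010I02Rik, at least 1.66-, 1.6- and 1.36-fold higher in CreTW by the same bound. Since detection in Cre took part in the choice of the 8 genes, the count of 3 among them has no test. The opposite pattern was shown by 1 gene, Capsl, at least 1.65-fold lower in CreTW (0.00437%). For the other 5 of the 8 genes the word "switched on" goes beyond the data, as Ccl21a, Elovl7, Homer2 and Atp6v0e2 were well above background on 1 to 3 Cre arrays and Avil on all 4.

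Elovl7, the elongase, had -2.0, -1.74, -1.77 and -1.35 in CreTW, against -3.28, -2.90, -2.85 and -2.56 in Cre. It was dim in both genotypes, with 3 Cre arrays well above background, and the genotypes did not overlap. The difference was 1.18 ± 0.20, or 2.26-fold, and 2.12-fold with the Cre array below background raised to its detection limit.

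Avil, advillin, was the only 1 of the 8 genes well above background on all 8 arrays. It had 1.52, 1.59, 1.51 and 1.43 in CreTW, against -0.53, -0.40, -0.44 and 0.0016 in Cre, with the Cre arrays all below the CreTW arrays. The mean was 1.51 ± 0.066 in CreTW and -0.34 ± 0.24 in Cre (SD, n = 4 each), a difference of 1.85 ± 0.12 or 3.62-fold. A second Avil probe, dimmer, had -1.96, -2.04, -1.86 and -1.86 in CreTW, against -4.86, -3.46, -2.92 and -3.25 in Cre. Its genotypes did not overlap either, and with the 3 Cre arrays below background raised to their limits it was 2.24-fold higher in CreTW.

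Sensory neuron and Schwann cell markers, examined because advillin is known from such neurons, summed to 173 to 212 in CreTW and 157 to 205 in Cre, and the ranges overlapped. Of these 15 markers, 9 were well above background on all CreTW arrays and 8 on all Cre arrays. The neuronal genes Pou4f1, Snap25, Tubb3 and Uchl1 were well above background on all 8 arrays, Prph on 3 CreTW and 0 Cre arrays, and Isl1 and Nefl on none. Tuft cell markers, another cell type known for advillin, summed to 14.1 to 15.6 in CreTW and 12.2 to 13.9 in Cre, without overlap. Of these 8 markers, 5 were well above background on all arrays of either genotype, and Pou2f3 and Il25 on none. The 6 measured markers did not move together, with 3 positive and 3 negative differences, a median of 0.02 and none passing limma. Dclk1 had the largest rise, 0.60 ± 0.12 (limma adjusted p = 0.117). The part of neurons or tuft cells in the Avil signal was not tested.

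Homer2, the scaffold, had -2.18, -2.13, -2.16 and -2.28 in CreTW, against -3.43, -2.97, -3.29 and -3.11 in Cre. The CreTW arrays were tightly grouped above all Cre arrays, of which 2 were well above background. Its difference of 1.01 ± 0.11, or 2.01-fold, was the smallest of the 8. With Cre replicate 1 raised to its limit it was 1.84-fold. The other dim Cre array, replicate 4, was not raised, as its -3.11 already lay above the limit of -3.16.

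Atp6v0e2, the proton pump subunit, had -1.88, -1.44, -1.72 and -1.41 in CreTW, against -2.89, -3.03, -2.59 and -2.49 in Cre. As for Elovl7, 3 Cre arrays were well above background, and the genotypes did not overlap. The difference was 1.13 ± 0.17, or 2.19-fold.

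**Figure D1:**
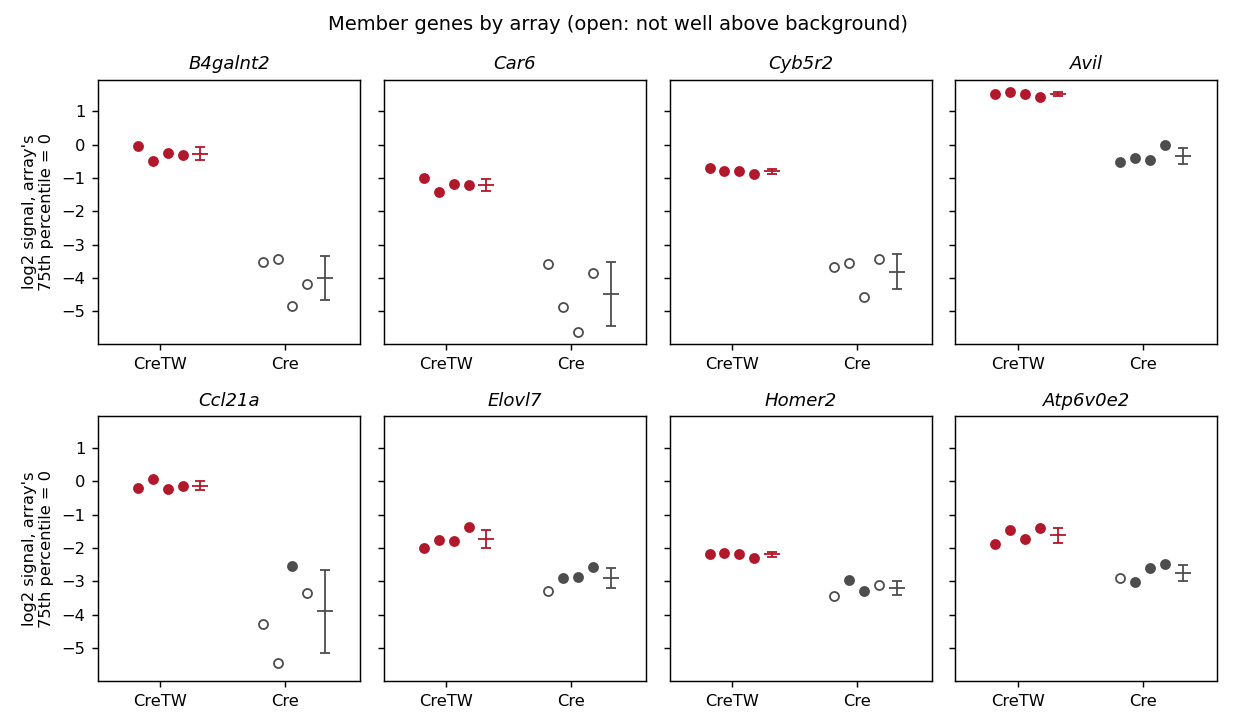
Signal of each of the 8 genes on each array, as log2 relative to the array's 75th percentile (vertical axis), with CreTW left of Cre; bars are mean ± SD of 4 arrays, and open points are not well above background. The 4 CreTW points lie above the 4 Cre points for every gene, and the Cre points are open on all 4 arrays for B4galnt2, Car6 and Cyb5r2.

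With signals below background raised to each array's detection limit, the differences of the 8 genes ran from 0.88 to 3.09, with a median of 2.0, those of B4galnt2, Car6 and Cyb5r2 being bounds. The median over all 23107 features kept, as measured, was -0.01. The 4 CreTW values lay above the 4 Cre values for all 8 genes, a pattern that 3.89% of features showed and that the choice of these genes favours, while 2.81% of features had all CreTW values below all Cre values. All 8 also passed limma's threshold in the higher direction, as did 0.229% of features (53 of 23107), and nothing is read from that count. Among the CreTW arrays the SD of the 8 genes had a median of 0.159, close to the 0.175 over all features. As the genes were chosen on this comparison, nothing is read from that. Among the Cre arrays their SD had a median of 0.414, against 0.181 over all features, with 5 of the 8 genes below background on 2 or more Cre arrays. Below background the order of values has no meaning.

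With signals below background raised in the same way, the 8 differences were 0.78 to 3.09 in the slide row with replicates 1 and 2 and 0.97 to 3.27 in the row with replicates 3 and 4. Ccl21a had 3.09 in the first row and 2.65 in the second, and B4galnt2, as a bound, 2.91 in the first and 3.27 in the second. Replicate 3 of Cre was the only Cre array on which Ccl21a and the second Avil probe were well above background, and it had the lowest detection limit of the Cre arrays, -3.93, against -2.91 on replicate 1.

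Of 20 skeletal muscle markers, 14 were well above background on all CreTW arrays and 9 on all Cre arrays. Their summed signal was 44.9, 673, 397 and 228 in CreTW replicates 1 to 4, against 32.0 to 103 in Cre. By this sum CreTW replicate 1 lay within the Cre range and the other CreTW arrays above it. Tnni2, the brightest marker in Cre, weighs most in the Cre sums and differed by only 0.31 ± 0.44. Single markers varied: on CreTW replicate 1 Acta1 had 0.37, against -1.45, -2.25, 1.35 and -0.80 in Cre. Casq1 had -1.96 there, against -1.69, -2.22, -1.43 and -2.10. The sum thus does not show that replicate to match Cre in muscle. With Cre signals below background raised, CreTW replicate 1 alone stood above the mean of the Cre arrays by 0.80 to 3.32 for the 8 genes, beside 0.88 to 3.09 for all CreTW arrays. The part of muscle in these values was not tested. Perichondrium, tendon and fibroblast markers, 12 of 12 well above background on all CreTW arrays and 11 on all Cre arrays, summed to 543 to 666 in CreTW and 386 to 521 in Cre. Lymphocyte and dendritic cell markers, 7 of 11 well above background throughout in either genotype with Cd3g and Cd8a on no array, ran the other way, at 13.5 to 17.1 in CreTW and 21.9 to 27.0 in Cre. Of that list H2-Ab1, which presents antigen, fell by 1.1 on the log2 scale (SE 0.16, limma adjusted p = 0.0309). It was the brightest gene of the list in both genotypes, so it weighs most in the sums. Of the 8 measured genes 7 differed negatively, but H2-Ab1 was the only 1 that passed. The T cell markers Cd3e and Cd4 differed by 0.08 ± 0.16 and -0.01 ± 0.11. Neither of these lists overlapped between genotypes, and their part in the values of the 8 genes was not tested.

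**Figure D2:**
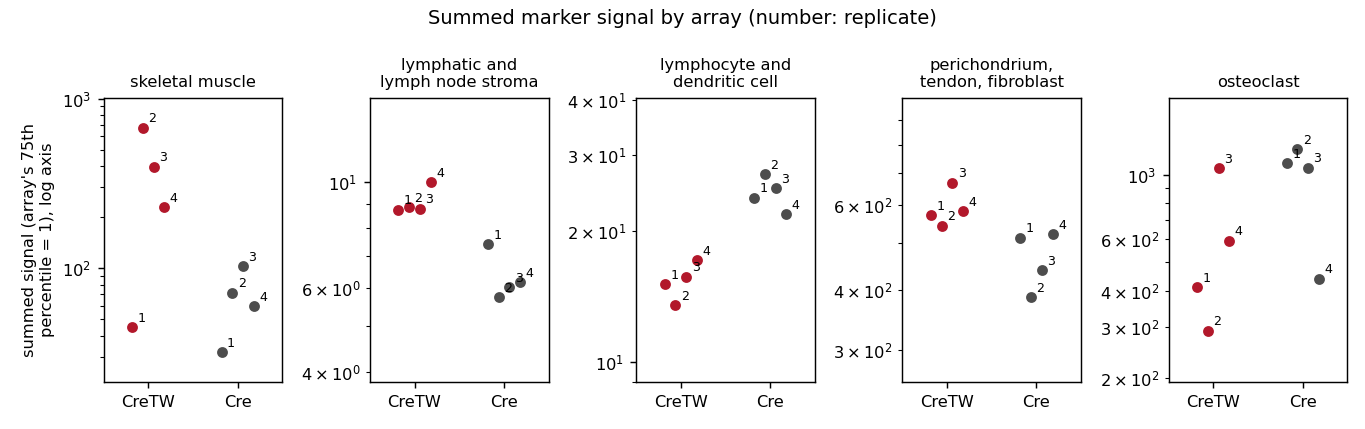
Summed signal of marker lists on each array, in units of the array's 75th percentile on a log axis, CreTW left of Cre, with the replicate number beside each point. CreTW replicate 1 has a summed muscle signal of 44.9, within the Cre range of 32.0 to 103, and the other CreTW arrays lie above it. Tnni2 weighs most in the Cre sums of that list.

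The relatives of the 8 genes were examined next, as 8 lists of related enzymes, receptors or subunits. Of 108 other genes of these lists that were measured, 1 passed limma's threshold, higher in CreTW, against 0.346% of all features, and 14 had an unadjusted p under 0.05, against 10.7% of all features. The medians of the 8 lists ran from -0.40 to 0.02, beside -0.01 over all features. The gene that passed was Cyb5r1, a cytochrome b5 reductase like Cyb5r2.

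Cyb5r1 had 2.35, 2.23, 2.23 and 2.22 in CreTW, against 1.21, 0.88, 1.17 and 0.81 in Cre. It was well separated, by more than the spread within either genotype, and rose 2.36-fold (log2 difference 1.24 ± 0.11, limma adjusted p = 0.0035). Cyb5r1 kept its call without each single array, the highest adjusted p being 0.0238. The other 10 measured genes of the cytochrome b5 list did not pass, and the list's median was 0.02.

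The 11 measured carbonic anhydrases included none that passed limma, with 3 at an unadjusted p under 0.05 and a median of -0.32. The brightest were Car3, a muscle and fat enzyme, at -1.35 ± 0.63, and Car12, a membrane-bound form, at -0.34 ± 0.33. None of 18 measured genes of the list of Sda and related glycosyltransferases passed, 2 of them having an unadjusted p under 0.05, and their median was -0.06. The brightest were St3gal1, which adds sialic acid, at -0.28 ± 0.11, and B4galt1, which adds galactose, at 0.14 ± 0.11.

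None of 6 measured genes of the villin and gelsolin family passed limma, and 0 had an unadjusted p under 0.05. The brightest of them, Gsn and Capg, which cut or cap actin filaments, differed by -0.13 ± 0.11 and -0.30 ± 0.22, and the family's median was -0.09. Of 10 measured genes of the CC chemokine and CCR7 list none passed, 2 had an unadjusted p under 0.05, and the median was -0.40. The chemokines Ccl9 and Ccl27a, the brightest, differed by -1.0 ± 0.45 and 0.06 ± 0.14.

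Among 18 measured enzymes of fatty acid elongation and desaturation none passed limma, 0 had an unadjusted p under 0.05, and the median was -0.08. Scd2, a desaturase, differed by -0.45 ± 0.21 and Fasn, the fatty acid synthase, by -0.21 ± 0.17. None of 14 measured Homer partners passed, with 3 at an unadjusted p under 0.05 and a median of 0.02. The calcium-release receptors Itpr3 and Itpr2 were the brightest, at 0.02 ± 0.13 and -0.18 ± 0.14. Ryr1, the calcium-release channel of skeletal muscle, differed by 2.46 ± 0.71 (limma adjusted p = 0.272), beside the muscle markers given above.

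None of 20 measured V-ATPase subunits passed limma, with 2 at an unadjusted p under 0.05. Their median was -0.27, and 18 of the 20 differences were negative, the opposite sign to Atp6v0e2. Atp6v1g1 and Atp6v1f, the brightest, differed by -0.13 ± 0.13 and -0.19 ± 0.13, and Atp6v0e, the gene most like Atp6v0e2 in name, by -0.17 ± 0.10. The median was -0.61 in the first slide row and 0.06 in the second, so its sign changed between rows. Osteoclasts are known for abundant V-ATPase, and all 9 measured osteoclast markers, of which Atp6v0d2 and Tcirg1 are also among the 20 subunits, differed negatively, with a median of -0.83, none of them passing limma and 1 having an unadjusted p under 0.05. Their part in the V-ATPase values was not tested.

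**Figure D3:**
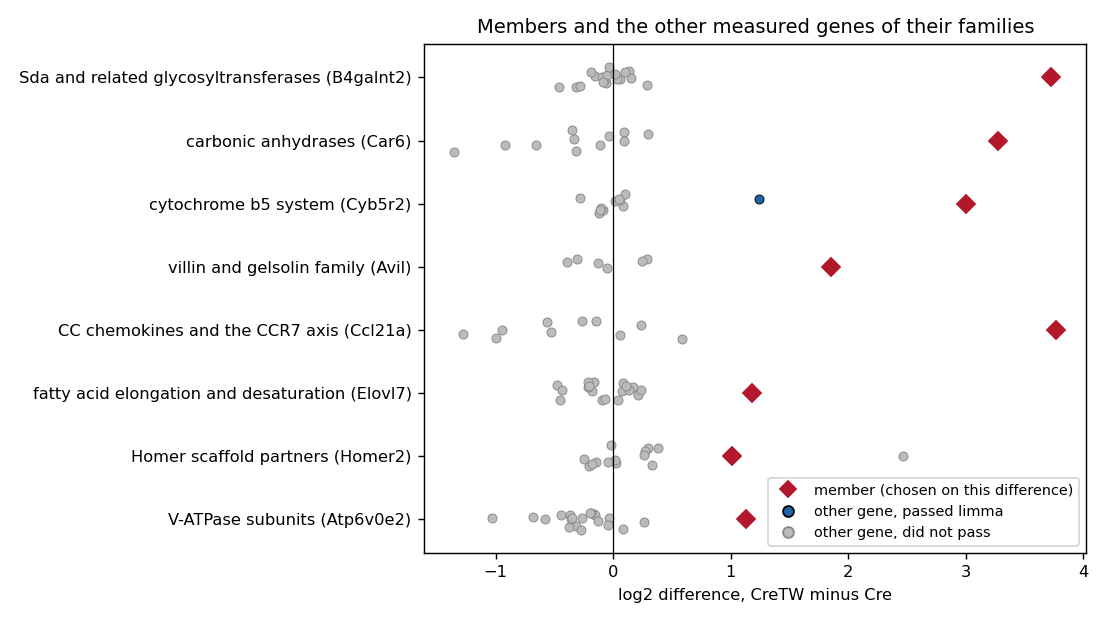
Log2 difference, CreTW minus Cre, of each member (diamond) and of the other measured genes of its family (circles), 1 list per line. Among the 108 other genes, Cyb5r1 at 1.24 is the only one that passed limma, and Ryr1 at 2.46 did not pass.

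Ddit3, the gene of CHOP, had 0.10, 0.19, 0.03 and 0.26 in CreTW, against -1.01, -0.85, -0.83 and -0.83 in Cre, with no overlap. It rose by 1.02 ± 0.09 on the log2 scale (limma adjusted p = 0.00344). The integrated stress response list had 40 measured genes, of which 13 passed as higher in CreTW and 0 as lower, with a median difference of 0.49. Another DOC name, Doc4, is listed for Tenm4, a teneurin, which was looked up after the values of Car6 and Avil were seen. Tenm4 had 2.74, 2.70, 2.49 and 2.69 in CreTW, against 2.10, 1.94, 1.97 and 1.92 in Cre. It rose 1.59-fold (log2 difference 0.67 ± 0.09, limma adjusted p = 0.0223), but that call was lost without any 1 array other than Cre replicate 1 or CreTW replicate 3, the highest adjusted p being 0.103.

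**Figure D4:**
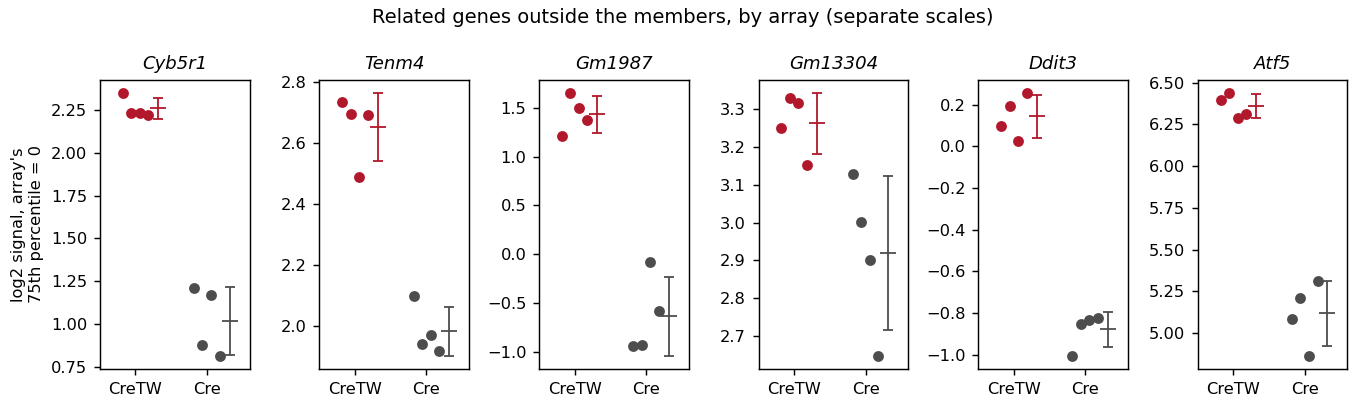
Signal of 6 genes outside the 8 on each array, as log2 relative to the array's 75th percentile, CreTW left of Cre, with mean ± SD of 4 arrays and a separate scale for each gene. In each panel the 4 CreTW points lie above the 4 Cre points, by the least for Gm13304, whose difference of 0.34 did not pass limma.

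The genes whose log2 values over the 8 arrays were most like those of each of the 8 genes are given by Pearson's r, as a description. All 8 arrays share the genotype difference, on which the 8 genes were chosen. The values were used as measured, with signals below background on all Cre arrays for B4galnt2, Car6 and Cyb5r2. For every gene but Avil some Cre signals were below background, where the order of values has no meaning, so the ranking is uncertain. B4galnt2 was most like Hspa9 (r = 0.991), Cyb5r2 (0.989) and Gm6756 (0.988). Cyb5r2 was most like Atf5 (0.996), Hax1 (0.989) and B4galnt2. Avil was most like Trib3 (0.991), Slc7a3 (0.990) and Atf5 (0.989).

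Homer2 had Psph (0.994), Phf10 (0.988) and Trib3 (0.988) nearest to it, and Car6 had F3 (0.985), Lamp2 (0.982) and Lrrc8c (0.980). Nearest to Elovl7 were Lsr (0.971), Atp6v0e2 (0.965) and Ddit3 (0.960), and to Ccl21a Gm1987 (0.976), Ngfr (0.972) and Lars (0.971). Atp6v0e2 was nearest to Gm1987 (0.967), Lrrn1 (0.967) and Tmem87b (0.966). Of these 24 places 7 were held by genes of the integrated stress response list, for 4 of the 8 genes, and 3 by another of the 8. That list makes up 40 of the 14124 features searched, and genes that differ by genotype come first by construction, so nothing is read from these counts.

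**Figure D5:**
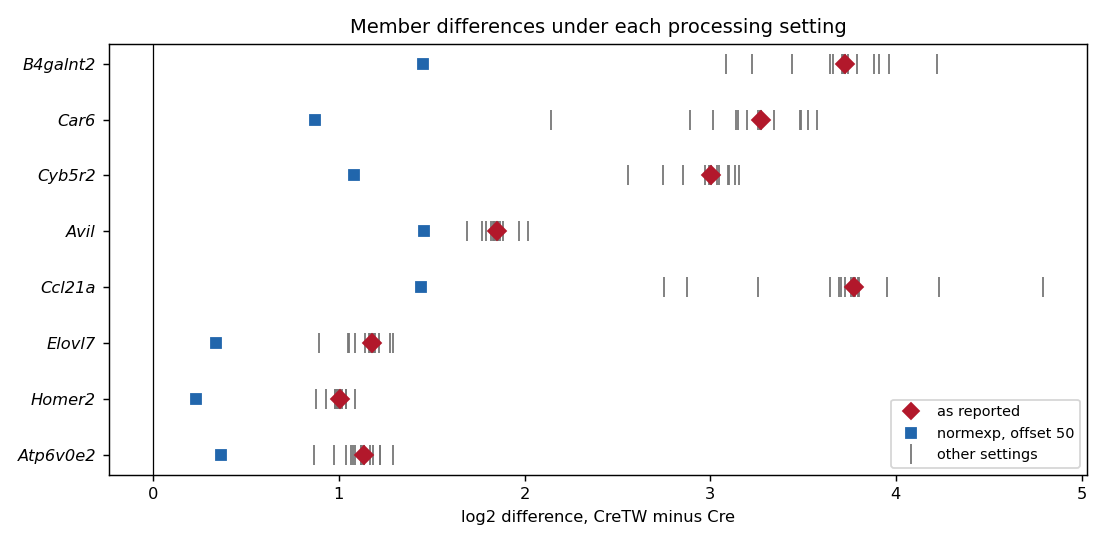
Log2 difference, CreTW minus Cre, of each of the 8 genes as reported (diamond), after normexp background correction with an offset of 50 (square) and under the other settings (ticks), with second probes not plotted. All values lie above 0, and the normexp values are the lowest of those plotted for each gene, at 0.23 to 1.46.

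The size of the 8 differences depended on how background was treated. After normexp correction with an offset of 50, which pulls dim probes together, Ccl21a differed by 1.44, Car6 by 0.87, Homer2 by 0.23 and Avil by 1.46. The sign was positive for all 8 genes under every setting tried. With signals below background raised to the detection limit, leaving out any single array gave 2.74 to 3.03 for Ccl21a and, as a bound, 2.89 to 3.24 for B4galnt2.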

How the data were processed

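RNA of growth plate cartilage from 4 CreTW and 4 Cre mice was read on 1-colour arrays, and the spot intensity values were deposited as scanner files, whose headers name Agilent Feature Extraction 11.5.1.1. The authors' value table holds log2 values, deposited with scale and centring unstated; its columns correlated at 1 with the values used here, with medians between -3.03 and -2.93, and served as an alternative. The well-above-background flag is a deposited call, used as such. The series' design text names GeneSpring 14.9; the array design is annotated on mm9, and promoter sequences are from RefSeq GRCm38.p6.

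Log2 processed signal minus each array's 75th percentile was averaged over spots of a probe. Of 56605 probes, the 29398 that 4 or more arrays showed well above background were kept, the brightest probe standing for a gene, giving 23107 features. Of all probes, 32989 had 1 symbol, 0 several and 23616 none. Genotypes were compared with limma 3.58.1 in R 4.3.3 (lmFit and eBayes, genotype only), with Benjamini-Hochberg adjustment at 0.05, tested on simulated data. A standard error beside a difference is limma's for tested genes; for the 8 genes it is from the SDs. The number of arrays limits the precision.

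Members and lists were chosen with earlier results of these data known. Genes named are the 8 members, those of each family list that passed or otherwise the 2 brightest, the 3 genes most like each member, and genes well above background on all CreTW and no Cre arrays. Tenm4, Ddit3, Gm13304, Ryr1, Atp6v0e, Capsl, Ccr7, Ccl19, Krt18 and cell type markers were named outside that rule, after their values were seen. Replicates are separate mice per the labels. Alternatives were other scalings, background correction, filters, probe rules, blocks, slide rows and left-out arrays.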

Additional observations from a re-analysis of the deposited data

How the results depend on the processing

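The count of changed features, 80 as reported, was 132 after normexp correction, 27 without the filter on dim probes, 53 with slide row as a block and 12 in a fit with a replicate block, and 42 to 75 with 1 array left out (42 without CreTW replicate 4, 50 without Cre replicate 3, 51 without Cre replicate 2 and 53 without CreTW replicate 2). It was 0 within either slide row alone by limma, where 3165 and 1216 features had an unadjusted p under 0.05, and 1 with CreTW replicate 1 alone against the Cre arrays, where the lone array is assumed to vary like the Cre arrays. The other settings gave 77 to 115. Same-numbered arrays did not deviate together, with correlations of -0.012, -0.10, 0.31 and -0.03 for numbers 1 to 4, so the numbers are not taken to pair the mice. The 1 changed family gene, Cyb5r1, was 0 under the replicate block, in either row alone (29 and 3 family genes at an unadjusted p under 0.05) and with CreTW replicate 1 alone, and 1 in all other settings, including 1 to 1 with an array left out. The 13 changed genes of the integrated stress response list were 8 to 12 with 1 array left out (8 without CreTW replicate 1, 2 or 4), 0 in either row alone, 5 without the filter and 2 with the replicate block. For the 8 genes no setting reversed the sign. A filter on all 8 arrays kept only Avil of them, as the other 7 were below background on 1 or more Cre arrays, and their folds are bounds or depend on how dim signals are treated.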
